A study of Homo sapiens with 33 samples.

Results

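The kallikrein related peptidases described here are the 10 genes KLK5, KLK6, KLK7, KLK8, KLK9, KLK10, KLK11, KLK12, KLK13 and KLK14. They were taken by gene symbol from a table of 56470 symbols, and all 10 symbols were found in it. The table holds bulk RNA sequencing of 3 established cell lines of head and neck squamous cell carcinoma (HNSCC), SCC1, SCC6 and SCC25. Each line was grown with PBS, the untreated control, on days 0 to 5 or with 100 nM cetuximab (CTX) on days 1 to 5. Cetuximab is an antibody that binds the epidermal growth factor receptor (EGFR) and blocks its ligands. The 33 libraries are 1 per line, treatment and day, except that 2 CTX libraries of SCC6 are labelled day 2 and none day 1, and these are called 2a and 2b. Medium with PBS or antibody was renewed daily, and the medium of SCC25 and SCC1 held hydrocortisone, which is not named for SCC6. The labels name no genetic change in any line. Each line and treatment is 1 time course, so the 5 libraries of days 1 to 5 stand in for replicates. Nothing in the labels says that they came from separate cultures, and p-values therefore measure the spread between days.

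KLK proteins are secreted serine proteases that are made as inactive proforms and become active when a short propeptide is cut off. In stratified epithelium, KLK5, KLK7 and KLK14 cleave the proteins that hold the outermost cells together, so that these cells can be shed. The inhibitor encoded by SPINK5 restrains them, and KLK5 and KLK14 can also cut and activate the receptor encoded by F2RL1 (protease activated receptor 2). KLK5, KLK6, KLK8, KLK11, KLK12, KLK13 and KLK14 cut after basic residues, as trypsin does, and KLK7 cuts after aromatic ones, as chymotrypsin does.

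The 10 genes are neighbours on chromosome 19, from 51446559 to 51587502 in GRCh37, a span of 141 kb, and all are read from the minus strand. KLK5 lies first in genome coordinates (51446559 to 51456349, ENSG00000167754), followed by KLK6 (51461887 to 51472929, ENSG00000167755), and KLK13 (51558883 to 51568371, ENSG00000167759) and KLK14 (51580752 to 51587502) lie at the far end. KLK8 (51499263 to 51505967) and KLK9 (51505764 to 51512890) share 204 exonic bases on the same strand, so reads there cannot be given to either with certainty. Another annotated gene on that strand, ENSG00000269741, covers 747 exonic bases of KLK8 and 1390 of KLK9 and was not analysed here. KLK5, KLK6, KLK10 and KLK12 each overlap exons of an antisense non-coding gene, by 202, 401, 240 and 160 bases. The library kit keeps strand, but whether strand was used in quantification is not given in the sources used here.

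The sequence upstream of the start is shown for KLK5, KLK6 and KLK13, the genes whose change with cetuximab passed the test in SCC25 or in both SCC1 and SCC6. The sequences are from RefSeq on GRCh38.p14, given 5′ to 3′ on the gene's strand, and stop before the first annotated exon.
KLK5, chr19:50953094-50953288, minus strand: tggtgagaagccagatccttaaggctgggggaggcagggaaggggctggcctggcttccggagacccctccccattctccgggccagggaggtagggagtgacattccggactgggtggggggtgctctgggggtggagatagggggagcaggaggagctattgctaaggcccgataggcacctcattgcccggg
KLK6, chr19:50969674-50969841, minus strand: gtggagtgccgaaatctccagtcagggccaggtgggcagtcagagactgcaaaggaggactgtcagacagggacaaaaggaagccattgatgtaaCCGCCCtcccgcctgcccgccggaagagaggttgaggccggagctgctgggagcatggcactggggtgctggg
KLK13, chr19:51065115-51065342, minus strand: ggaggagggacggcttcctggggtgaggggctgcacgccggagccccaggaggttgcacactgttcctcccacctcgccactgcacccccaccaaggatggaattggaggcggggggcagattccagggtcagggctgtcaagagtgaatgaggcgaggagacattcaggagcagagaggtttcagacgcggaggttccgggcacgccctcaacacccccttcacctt
Capitals mark the letters GGGCGG or their reverse complement, the core of a GC box. It was found in the KLK6 stretch and not in those shown of KLK5 and KLK13. The windows of 250 bases from which the stretches were cut held more. That of KLK6 had 3 matches, and that of KLK13 had 2, at -11 and -7 from the start, while that of KLK5 had none. RefSeq windows of 250 bases before a start were at hand for 9 of the 10 genes (all but KLK8), 16 windows in all. GGGCGG was in 10 of these 16 windows and in 42.6% of 35116 windows of all genes, both strands searched. The 10 were of KLK6, KLK7, KLK9, KLK11, KLK13 and KLK14. Some windows of the same gene overlap, so a match can count more than once. The TFAP2 letters GCCNNNGGC were in 3 of the 16, those of KLK6, KLK11 and KLK13, against 19.8% of all windows. Neither the AP-1 letters TGANTCA (6.57% of all windows), the GRHL letters AACCGGTT (0.117%) nor TATAAA (10.7%) were in any of the 16. A match or its absence describes the letters in these windows only.

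Library totals ranged from 28508758 to 80727478 estimated counts, with a median of 43002133. The 2 deepest libraries were the day 4 and day 5 CTX libraries of SCC6, which were also the only ones on their flow cell. All 10 squamous epithelial markers checked (KRT5, KRT14 and others) were above 1 CPM (counts per 1000000, with library sizes scaled by TMM) on average in SCC1 and SCC25, and 9 of 10 in SCC6. In bulk RNA, fewer cells that express a gene and less of its RNA per cell cannot be told apart. Of 12 genes that report ERK pathway output, those that fell with CTX numbered 10 for SCC1, 11 for SCC6 and 10 for SCC25, and 8, 11 and 10 of these calls held within the flow cell that held both treatments. DUSP6, a phosphatase induced by ERK, went with CTX from a mean of 138 to 14.9 CPM in SCC1, from 45.6 to 11.9 in SCC6 and from 89.5 to 38.5 in SCC25. The summed level of 7 fibroblast markers was higher with CTX in every line, with ranges of 20.6 to 32.6 and 48.9 to 145 CPM in SCC1, 2.88 to 5.09 and 8.92 to 119 in SCC6, and 150 to 199 and 254 to 405 in SCC25 for PBS and CTX. Not every one of them was higher: THY1 fell in SCC25 from a mean of 2.53 to 1.6 CPM (log2 change -0.66 ± 0.2, adjusted p 0.042, edgeR, but 0.37 within 1 flow cell), its mean with CTX was also the lower one in SCC1 and SCC6, and COL1A2 was at 0.285 and 0.243 CPM in SCC6. Most of the sum in SCC6 was COL1A1, with means of 2.98 and 41.2 CPM. Among defining genes, LUM was at 0 to 0.223 CPM in SCC6 and 20.2 to 108 in SCC25, and none of the 7 was at 0 throughout a group. Their part in the KLK results was not tested. Flow cells and treatments overlapped in part. Changes of members and gene lists are therefore also given within the 1 flow cell that held both treatments of a line, with fewer libraries. In SCC6 its PBS and CTX libraries were on different lanes, so lane and treatment cannot be told apart there. Days were not matched in these fits. They used PBS of day 5 with CTX of days 1 to 5 in SCC1. In SCC6 they used PBS of days 2 to 5 with CTX of 2a, 2b and day 3. In SCC25 they used PBS of days 1 to 5 with CTX of days 1 and 2.

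The 3 lines differed in which KLK genes they expressed. Divided by the length of the MANE Select transcript, KLK6 had the highest level of the family in SCC6 and KLK5 in SCC25, whereas in SCC1 no gene exceeded 0.515 CPM per kilobase in any library of days 1 to 5. Mean levels in SCC6 with PBS were 180 CPM per kilobase for KLK6, 22.7 for KLK5 and 8.17 for KLK10, with ranges that did not overlap, and 0.785 for KLK8 and 0.503 for KLK7, whose ranges did. In SCC25 with PBS they were 37.3 for KLK5, 13.6 for KLK8, 6.4 for KLK7, 6.02 for KLK10 and 2.58 for KLK6. In SCC1 with PBS the highest was KLK10 at 0.324 CPM per kilobase, and the ranges of KLK10, KLK6 (0.293) and KLK5 (0.27) overlapped. In SCC25 the range of KLK10 overlapped with those of KLK7 and KLK8, while those of KLK5 and KLK6 overlapped with none of the others named. KLK12 had 2 counts over the 33 libraries, 1 in each of 2 CTX libraries of SCC25, and 0 in the other 31. A count of 0 allows up to 3 counts in a library, and such floors cover counting error only.

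**Figure D1:**
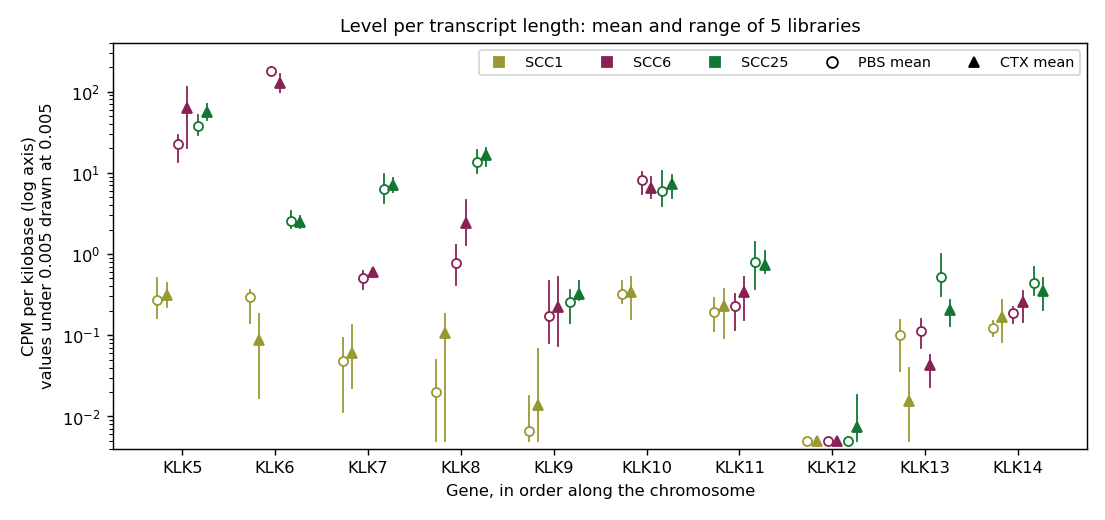
Level of each gene in CPM per kilobase of transcript on a log axis, with points for the mean of 5 libraries (open circles PBS, filled triangles CTX) and lines for their range. KLK6 in SCC6 (180 with PBS) and KLK5 in SCC25 (37.3 with PBS) lead their lines, no gene of SCC1 has a mean above 0.338, and values near 0 are drawn at the lower edge.

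Summed over the 10 genes, the level with PBS was 2.46 ± 0.494 CPM in SCC1, 319 ± 30.3 in SCC6 and 106 ± 32.2 in SCC25 (SD, n = 5 days each). With CTX it was 2.32 ± 0.422, 299 ± 109 and 140 ± 30.7 CPM. KLK6 made up 79.8% to 81.9% of the sum in each PBS library of SCC6, and 53.6% to 76% with CTX, where the share of KLK5 was 15.2% to 40% against 7.22% to 12.3% with PBS. In SCC25, KLK5 made up 50.3% to 58.1% of the sum with PBS and 57.7% to 61.9% with CTX.

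Levels of untreated cells were compared between lines over days 1 to 5 with edgeR's quasi-likelihood test, Benjamini-Hochberg adjusted over all genes, at an adjusted p under 0.05. Of the 10 members, 9 passed the filter on low counts, all but KLK12. SCC1 was lower than SCC25 for all 9 tested, where 68.4% of all genes tested differed and 35.1% were lower. SCC1 was lower than SCC6 for 6 of 9, where 69.1% differed and 34.5% were lower. SCC6 differed from SCC25 for 7 of 9, 1 higher and 6 lower, where 72.1% of all genes differed, 34.8% higher and 37.3% lower. In the 3 comparisons the median log2 differences of the 9 members were -4.19 (SCC1 minus SCC25), -4.34 (SCC1 minus SCC6) and -1.19 (SCC6 minus SCC25). The value -4.34 is that of KLK9, with 2 counts over the 5 PBS libraries of SCC1 and 36 in SCC6. The filter was run over the 3 lines together. Within the CTX and PBS libraries of each line, KLK9, KLK13 and KLK14 passed it only in SCC25. KLK7 and KLK8 passed it in SCC6 and SCC25 but not in SCC1. The counts of members lower than SCC25, and of those lower in SCC1 than in SCC6, are therefore partly set by the filter. The PBS libraries of SCC25 shared no flow cell with those of the other lines, so line and flow cell cannot be told apart there.

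KLK6, a trypsin-like protease, was the gene with the largest differences involving SCC6. Its level with PBS on days 1 to 5 was 0.483, 0.403, 0.521, 0.2 and 0.49 CPM in SCC1. In SCC6 it was 233, 246, 278, 285 and 247 CPM, and in SCC25 3.04, 3.18, 3, 4.39 and 4.85 CPM. The 3 ranges did not overlap. On the log2 scale SCC6 was above SCC25 by 6.15 ± 0.17 (SE, adjusted p 3.6e-15 by edgeR), and SCC1 differed from SCC6 by -9.27 ± 0.2 (adjusted p 4.4e-16).

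KLK8, a trypsin-like protease of skin and brain, and KLK7, a chymotrypsin-like protease of the horny layer, were highest in SCC25. KLK8 was at 9.14 to 17.7 CPM in SCC25 with PBS, 0.379 to 1.18 in SCC6 and 0 to 0.0448 in SCC1. KLK7 was at 8.26 to 19 CPM in SCC25, 0.72 to 1.2 in SCC6 and 0.0222 to 0.179 in SCC1. SCC6 differed from SCC25 by -4.06 ± 0.29 in log2 for KLK8 (adjusted p 9.8e-10, edgeR) and by -3.63 ± 0.28 for KLK7 (adjusted p 2.8e-09).

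KLK5 and KLK10 were shared by SCC6 and SCC25. KLK5 ranged with PBS from 20.7 to 43.6 CPM in SCC6 and from 43.9 to 78.6 in SCC25, a log2 difference of -0.68 ± 0.21 (adjusted p 0.0084, edgeR). KLK10, which was first described as a gene of normal breast epithelial cells, ranged from 16.5 to 30.7 CPM in SCC6 and from 11.8 to 31.6 in SCC25. The KLK10 ranges overlapped, and the log2 difference of 0.47 had a 95% interval of 0 to 0.94 and did not pass (adjusted p 0.089, edgeR). With the replicate block by day it was 0.57 and passed (adjusted p 0.05 as rounded), and it also passed without the day 5 PBS library of SCC25 (0.76, adjusted p 0.0022) or of SCC6 (0.58, adjusted p 0.039). For KLK5, SCC1 was at 0.25 to 0.762 CPM and below SCC25 by a log2 difference of -7.12 ± 0.31 (adjusted p 1.9e-12).

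KLK9, KLK11, KLK13 and KLK14 were low in every line. Their highest values in any library of days 1 to 5 were 0.726 CPM for KLK9 (SCC6, CTX day 4), 1.64 for KLK11, 1.81 for KLK13 and 0.731 for KLK14, the last 3 all in the PBS library of day 5 of SCC25. Over the 33 libraries they had 337, 727, 440 and 401 counts. At this depth KLK11, KLK13 and KLK14 were higher in SCC25 than in SCC6. The log2 differences of SCC6 minus SCC25 were -1.81 ± 0.36, -2.13 ± 0.4 and -1.19 ± 0.27 (adjusted p 0.00023, 0.00014 and 0.00071, edgeR). Of these, KLK13 and KLK14 did not pass the filter on low counts within the libraries of SCC6 alone. KLK9 did not pass in that comparison (-0.58 ± 0.45, adjusted p 0.25), but did without the day 5 PBS library of SCC6 (-1.31, adjusted p 0.0063).

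The main question of the study was what cetuximab changes in the first days of treatment. CTX and PBS were compared within each line over days 1 to 5. KLK5 rose in SCC6 and SCC25, KLK8 rose in SCC6, KLK6 fell in SCC1 and SCC6, and KLK13 fell in SCC25. In SCC1, 4 of the 10 members passed the filter and 1 was called lower, where 44.8% of 17984 genes were called and 22.1% were lower. In SCC6, 6 passed the filter, 2 were called higher and 1 lower, where 30.1% of 17387 genes were called, 15.6% higher and 14.6% lower. In SCC25, 9 passed the filter, 1 was called higher and 1 lower, where 18.3% of 19101 genes were called, 8.8% higher and 9.5% lower. The median log2 change of the members tested was 0.15, 0.39 and 0.14, and that of all genes tested was 0.02, 0 and 0.01. With 1 of 4, 3 of 6 and 2 of 9 tested members called against these backgrounds, the counts are not read as a result about the family, and the values of single genes follow.

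KLK5, the trypsin-like protease placed at the head of the activation cascade in skin, rose with CTX in SCC6, with its highest levels on the last days. Its PBS levels in SCC6 were 11.4 CPM on day 0 and 20.7, 30.6, 41.6, 43.6 and 35.2 on days 1 to 5. With CTX they were 30.9 in 2a, 52.1 in 2b, and 76, 142 and 175 CPM on days 3 to 5. The CTX libraries of days 4 and 5 stood far above all others, while 2a lay inside the PBS range. The log2 change was 1.4 ± 0.4 (adjusted p 0.019, edgeR). It missed the threshold without the PBS library of day 2 (1.35, adjusted p 0.052) or the CTX library of day 5 (1.09, adjusted p 0.054). Within the flow cell that held both treatments (4 PBS and 3 CTX libraries, days 4 and 5 of CTX not among them) it was 0.47 (adjusted p 0.18).

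In SCC25, KLK5 was higher with CTX from the first day on. PBS levels were 48, 43.9, 48.6, 63.3 and 78.6 CPM on days 1 to 5, and CTX levels 68.4, 74.4, 68.2, 104 and 107. CTX was higher on 5 of 5 days, by log2 ratios of 0.45 to 0.76, but PBS also rose with day and the group ranges overlapped. The log2 change was 0.58 ± 0.18 (adjusted p 0.044, edgeR), and 0.58 with the replicate block by day (adjusted p 0.00049). Without the block it missed the threshold when any of 6 libraries was left out (PBS of day 1, 2, 3 or 4, CTX of day 4 or 5), with values of 0.49 to 0.62 and adjusted p of 0.059 to 0.11. Within the flow cell that held both treatments (5 PBS libraries of days 1 to 5 and 2 CTX libraries of days 1 and 2) it was 0.34 (adjusted p 0.28, edgeR). The days are not matched in that value. Against PBS of the same day, the log2 ratios of these 2 CTX libraries were 0.51 and 0.76. The PBS libraries of days 1 and 2 were on another lane than these CTX libraries, so lane and treatment cannot be told apart in the ratios.

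In SCC1, KLK5 was at 0.762, 0.425, 0.25, 0.266 and 0.341 CPM with PBS and 0.556, 0.661, 0.398, 0.412 and 0.336 with CTX on days 1 to 5. The ranges overlapped, and the 95% interval of the log2 change was -0.38 to 0.88, with a value of 0.48 within the flow cell that held both treatments (adjusted p 0.54, edgeR).

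**Figure D2:**
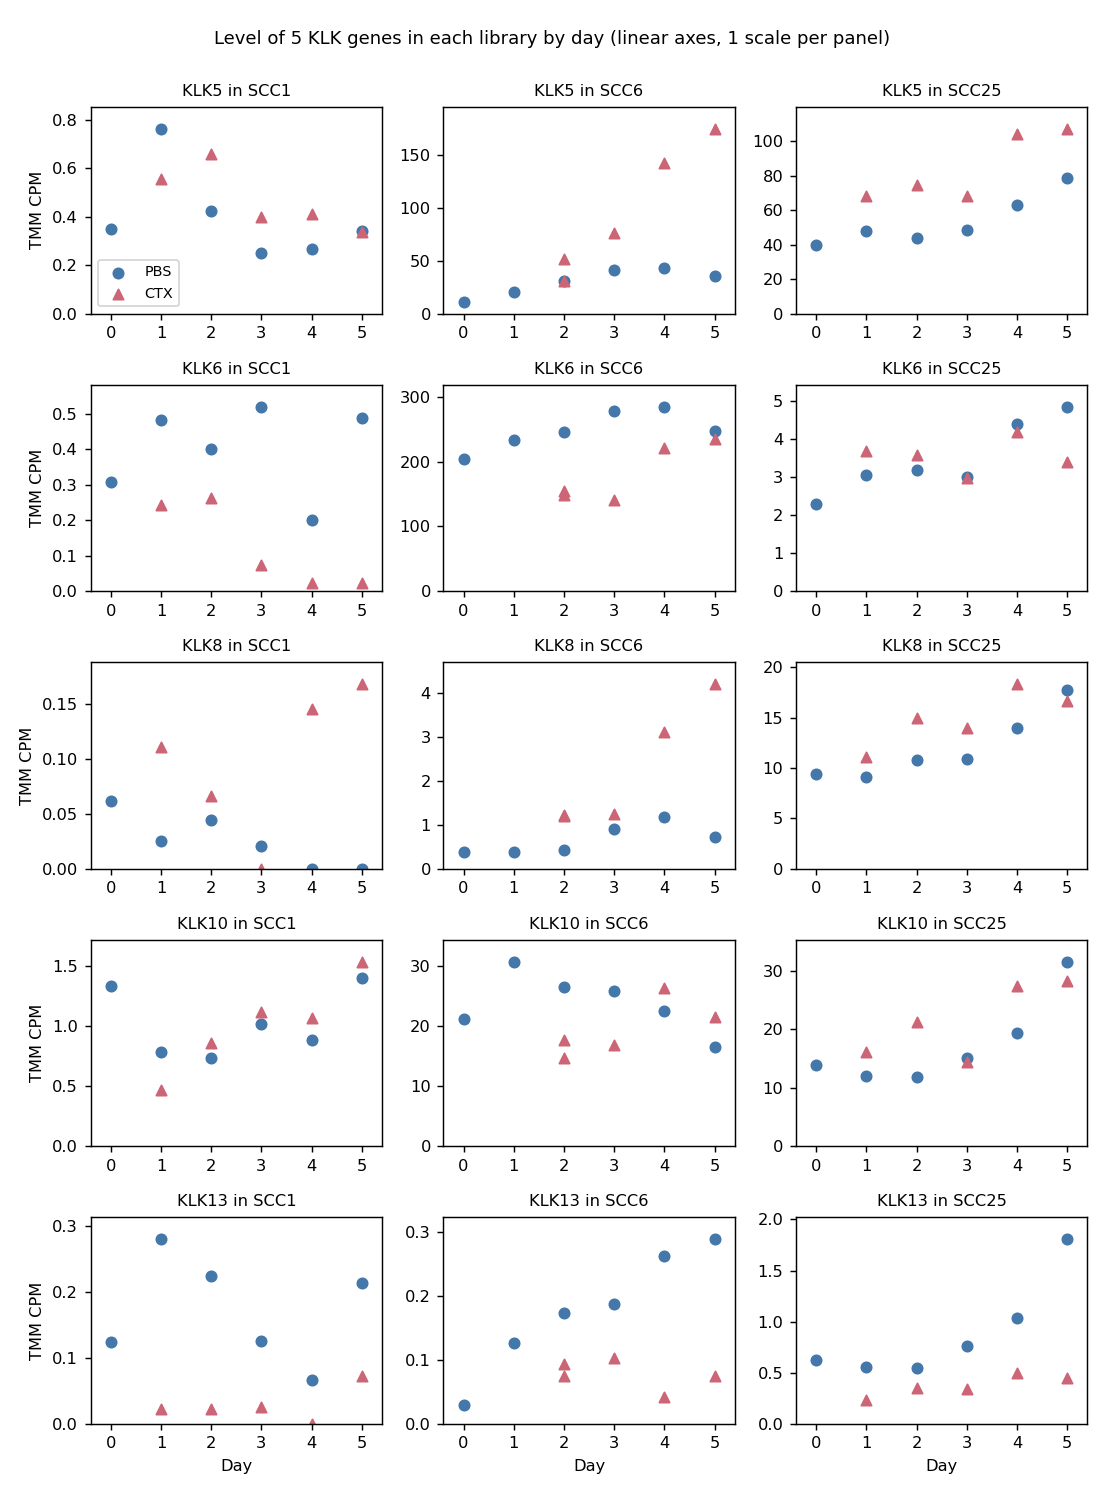
Level of KLK5, KLK6, KLK8, KLK10 and KLK13 in CPM against day, 1 point per library (blue circles PBS, red triangles CTX), with a scale of its own in each panel and axes from 0. KLK5 of SCC6 reaches 142 and 175 CPM with CTX on days 4 and 5 while PBS stays at or under 43.6, and in SCC1 the axes end under 2 CPM.

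KLK6 went down with CTX in SCC6, where it is the most abundant member. Beside the PBS levels given above (233 to 285 CPM), CTX levels were 154 in 2a, 149 in 2b, 141 on day 3, 221 on day 4 and 234 on day 5. The first 3 of these lay far below the PBS range, and the last lay inside it. The log2 change was -0.58 ± 0.14 (adjusted p 0.0098, edgeR), and -0.85 within the flow cell that held both treatments (adjusted p 9.3e-05, edgeR). In that flow cell the PBS and CTX libraries were on different lanes, so lane and treatment cannot be told apart. No library left out took the call away.

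In SCC1, KLK6 with CTX was at 0.245, 0.264, 0.0746, 0.0243 and 0.024 CPM on days 1 to 5, or 11, 12, 3, 1 and 1 counts. With PBS the counts were 19, 18, 25, 9 and 23. All CTX libraries but those of days 1 and 2 lay below the lowest PBS library. The log2 change was -1.65 ± 0.5 (adjusted p 0.017, edgeR). The value within the flow cell that held both treatments, with 1 PBS and 5 CTX libraries, was -1.89 (adjusted p 0.18).

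KLK6 in SCC25 was at 3.68, 3.58, 2.98, 4.18 and 3.4 CPM with CTX and inside the PBS range of 3 to 4.85 on all days but day 3. The 95% interval of its log2 change was -0.36 to 0.25, and the value within the flow cell that held both treatments was -0.02 (adjusted p 0.96, edgeR). The change in SCC1 was below that in SCC25 by a log2 difference of -1.61 ± 0.46 (adjusted p 0.024, edgeR, a fit over all 3 lines), where 8.52% of all genes differed and 4.35% in that direction. Of 9 members tested it was the 1 called. That difference missed the threshold without the SCC1 library of PBS day 3 (-1.51, adjusted p 0.058) or of CTX day 3 (-1.47, adjusted p 0.057), day 4 (-1.35, adjusted p 0.07) or day 5 (-1.34, adjusted p 0.073). A flow cell term also took the call away (-1.86, adjusted p 0.11). The change of KLK6 in SCC6 against that in SCC25 did not pass (-0.51 ± 0.25, adjusted p 0.16), but did with the flow cell as a covariate (-0.83, adjusted p 0.041). Between SCC1 and SCC6 edgeR called none of 9 members, where 19.3% of all genes differed. KLK6 alone had an unadjusted p under 0.05 (-1.09 ± 0.45, adjusted p 0.091), and DESeq2 called it (-1.1, adjusted p 0.024). It was also called by edgeR without the SCC1 library of PBS day 4 (-1.27, adjusted p 0.045), CTX day 1 (-1.46, adjusted p 0.04) or CTX day 2 (-1.54, adjusted p 0.03).

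KLK8 rose in SCC6. PBS levels were 0.379, 0.414, 0.897, 1.18 and 0.72 CPM on days 1 to 5, and CTX levels 1.22 in 2a, 1.19 in 2b, and 1.24, 3.11 and 4.19 on days 3 to 5. All 5 CTX libraries lay above all 5 PBS libraries, as for 11.4% of all genes tested in SCC6, but 3 of them by little. The log2 change was 1.54 ± 0.44 (adjusted p 0.019, edgeR). It missed the threshold without the PBS library of day 2 (1.39, adjusted p 0.054) or the CTX library of day 5 (1.2, adjusted p 0.053), and was 0.56 within the flow cell that held both treatments (adjusted p 0.2).

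KLK8 in SCC25 was at 9.14, 10.8, 10.9, 13.9 and 17.7 CPM with PBS and 11.1, 14.9, 13.9, 18.3 and 16.6 with CTX. CTX was higher on 4 of 5 days. The log2 change of 0.26 ± 0.18 did not pass (adjusted p 0.33, edgeR), whereas with the replicate block by day it was 0.28 and passed (adjusted p 0.045), and within the flow cell that held both treatments it was 0.07 (adjusted p 0.88). The change in SCC6 exceeded that in SCC25 by 1.31 ± 0.46 (adjusted p 0.045, edgeR), the 1 call among 9 members where 17.5% of all genes were called and 10.2% in that direction. This call was lost on leaving out any 1 of 17 of the 30 libraries, with the lowest value, 0.97 (adjusted p 0.14), without the CTX day 5 library of SCC6. The other 16 were CTX day 4 and PBS days 1, 2, 3 and 5 of SCC6, CTX days 1, 2, 3 and 5 and PBS days 2 to 5 of SCC25, and CTX days 2 and 4 and PBS day 3 of SCC1, which enter through the shared spread (1.15 to 1.4, adjusted p 0.05 to 0.097). With the flow cell as a covariate it was 0.48 (adjusted p 0.57). For KLK5 the same difference was 0.83 ± 0.41 (adjusted p 0.17), and 1.08 without library 2a of SCC6 (adjusted p 0.026). For KLK10 it was -0.63 ± 0.35 (adjusted p 0.22), and -0.93 without the day 5 PBS library of SCC25 (adjusted p 0.045). In SCC1 the KLK8 counts were 0 to 2 per library with PBS and 0 to 7 with CTX on days 1 to 5, and it did not pass the filter. Without the filter its log2 change there was 2.29 ± 0.82 (adjusted p 0.056, edgeR).

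KLK13, a trypsin-like protease, was low in every line, and each CTX library lay below PBS of its day (libraries 2a and 2b below the mean of days 1 and 2). In SCC25 its PBS levels were 0.555, 0.545, 0.762, 1.04 and 1.81 CPM on days 1 to 5, or 25 to 89 counts, and its CTX levels 0.235, 0.354, 0.337, 0.499 and 0.451, or 11 to 23 counts. All CTX libraries lay below all PBS libraries, as for 7.87% of genes tested in SCC25. The log2 change was -1.32 ± 0.35 (adjusted p 0.023, edgeR), and -1.66 within the flow cell that held both treatments (adjusted p 0.073, edgeR). That flow cell held PBS of days 1 to 5 but CTX of days 1 and 2 only. Against PBS of the same day, the log2 ratios of these CTX libraries were -0.97 and -0.51, with the PBS and CTX libraries of these days on different lanes. No library left out took the call away.

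In SCC1 and SCC6, KLK13 did not pass the filter on low counts. Its SCC1 counts were 11, 10, 6, 3 and 10 with PBS and 1, 1, 1, 0 and 3 with CTX on days 1 to 5. Its SCC6 counts were 4, 5, 5, 10 and 8 with PBS and 3, 3, 4, 3 and 5 with CTX. In SCC6 all CTX levels (0.0419 to 0.103 CPM) lay below all PBS levels of days 1 to 5 (0.126 to 0.288). They lay above that of day 0 (0.0287 CPM, 1 count), and the counts of days 1 to 5 overlapped. Among the genes tested in that line, which do not include KLK13, 8.01% had all CTX levels below PBS of days 1 to 5. In a fit without the filter the log2 change was -2.55 ± 0.61 in SCC1 (adjusted p 0.0039, edgeR) and -1.48 ± 0.45 in SCC6 (adjusted p 0.037). The change of KLK13 did not differ past the threshold between any pair of lines, with 95% intervals of -2.53 to 0.44 for SCC1 minus SCC6, -2.51 to 0.04 for SCC1 minus SCC25 and -1.19 to 0.81 for SCC6 minus SCC25.

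**Figure D3:**
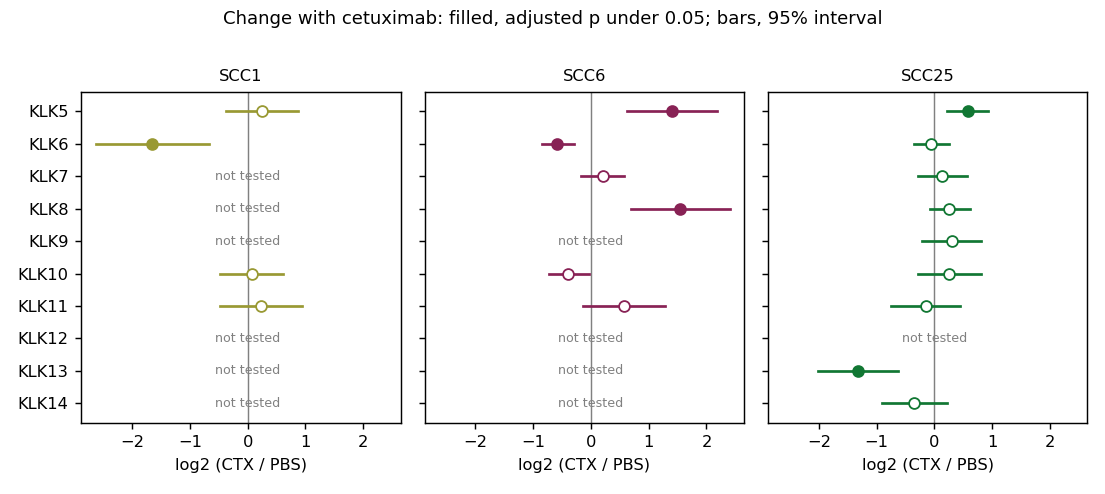
Log2 change with CTX over days 1 to 5 for each gene and line, with bars for the 95% interval and filled points for an adjusted p under 0.05. KLK5 lies at 1.4 in SCC6 and 0.58 in SCC25, and KLK6 at -1.65 in SCC1 and -0.58 in SCC6, and genes marked as not tested did not pass the filter on low counts.

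KLK10 was not called in any of the 3 lines, nor KLK7 in SCC6 or SCC25, where it was tested. In SCC6, KLK10 was at 30.7, 26.4, 25.8, 22.4 and 16.5 CPM with PBS and 14.6 in 2a, 17.7 in 2b, and 16.8, 26.3 and 21.5 on days 3 to 5 with CTX. PBS went down over days 1 to 5, though it was at 21.2 CPM on day 0. CTX was highest on day 4, and the ranges overlapped. The log2 change of -0.39 ± 0.18 did not pass (adjusted p 0.12, edgeR), but did within the flow cell that held both treatments (-0.49, adjusted p 0.039) and without the PBS library of day 5 (-0.5, adjusted p 0.036). KLK10 in SCC25 was at 11.8 to 31.6 CPM with PBS and 14.5 to 28.3 with CTX, and in SCC1 at 0.738 to 1.41 and 0.467 to 1.54, with 95% intervals of its change of -0.28 to 0.8 and -0.48 to 0.62. KLK7 in SCC25 was at 8.26 to 19 CPM with PBS and 11.3 to 17 with CTX, and in SCC6 at 0.72 to 1.2 and 1.03 to 1.31. The 95% intervals of the KLK7 change were -0.29 to 0.57 in SCC25 and -0.17 to 0.58 in SCC6. Within the flow cell that held both treatments, the KLK10 value was 0.06 in SCC25 and -0.48 in SCC1 (adjusted p 0.93 and 0.53, edgeR), and the KLK7 value was -0.05 in SCC25 and 0.2 in SCC6 (adjusted p 0.93 and 0.59), none past the threshold.

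KLK9, KLK11 and KLK14 were not called in any line in which they were tested. KLK11 was at 0.133 to 0.336 CPM with PBS and 0.11 to 0.437 with CTX in SCC1, at 0.138 to 0.379 and 0.18 to 0.621 in SCC6, and at 0.436 to 1.64 and 0.684 to 1.27 in SCC25. KLK14 was at 0.104 to 0.157 and 0.0881 to 0.289 CPM in SCC1, 0.15 to 0.236 and 0.154 to 0.374 in SCC6, and 0.325 to 0.731 and 0.214 to 0.542 in SCC25. KLK9 was at 0.196 to 0.5 CPM with PBS and 0.385 to 0.645 with CTX in SCC25, and at 0.112 to 0.648 and 0.103 to 0.726 in SCC6. In each of these the ranges overlapped. KLK9 in SCC1 had at most 4 counts in a library. The 95% intervals of the log2 change in SCC25 were -0.22 to 0.81 for KLK9, -0.75 to 0.44 for KLK11 and -0.91 to 0.22 for KLK14, and those of KLK11 were -0.48 to 0.95 in SCC1 and -0.14 to 1.29 in SCC6. The values within the flow cell that held both treatments did not pass either, at 0.5 for KLK9, -0.46 for KLK11 and -0.52 for KLK14 in SCC25 (adjusted p 0.43, 0.52 and 0.46, edgeR), and for KLK11 at 0.05 in SCC1 and 0.7 in SCC6 (adjusted p 0.97 and 0.33).

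Whether the change differed between days 1 to 3 and days 4 to 5 was tested in each line. By edgeR no member was called in any line, and none of the genes tested was (0%). At an unadjusted p under 0.05 there were 1458, 5626 and 599 genes in SCC1, SCC6 and SCC25, and DESeq2 called 31, 2838 and 3. Of the members tested, 1 of 4 in SCC1, 3 of 8 in SCC6 and 1 of 9 in SCC25 had an unadjusted p under 0.05, and DESeq2 called 0, 2 and 0. That in SCC1 was KLK6 (-2.46 ± 1.01, adjusted p 0.67, edgeR), that in SCC25 KLK7 (-0.55 ± 0.19, adjusted p 1), and the 3 in SCC6 were KLK10, KLK6 and KLK5. For KLK10 the log2 change was -0.79 ± 0.15 on the earlier days (adjusted p 0.0042, edgeR) and 0.21 ± 0.18 on the later days (adjusted p 0.38), a difference of 1 ± 0.23 (adjusted p 0.093 by edgeR, 0.0066 by DESeq2). For KLK6 it was -0.81 ± 0.1 and then -0.31 ± 0.12, a difference of 0.5 ± 0.15 (adjusted p 0.094 by edgeR, 0.046 by DESeq2). For KLK5 it was 0.74 ± 0.31 and then 1.92 ± 0.38, a difference of 1.18 ± 0.48 (adjusted p 0.14 by edgeR, 0.062 by DESeq2). The later CTX libraries of SCC6 were all on 1 flow cell of their own, so day and flow cell cannot be told apart there. Without the PBS library of day 1, KLK10 (0.91, adjusted p 0.034) and KLK6 (0.55, adjusted p 0.042) passed by edgeR, and KLK10 also without that of day 3 (1.04, adjusted p 0.049). Without the filter on low counts edgeR called KLK5 (1.19, adjusted p 1e-06) and KLK10 (1.02, adjusted p 0.0015).

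In SCC25, 6 KLK genes rose over the days in untreated cells. The slope of log2 level on day was fitted over the 6 PBS libraries of days 0 to 5, which in SCC25 were all on 1 flow cell. Those of days 0 to 3 were on a different lane of it from those of days 4 and 5. Day and lane can therefore not be fully told apart in the trends of SCC25. Of 9 members tested in SCC25, 6 were called, all higher, where 10.7% of 20017 genes changed with day and 7.08% rose. The 6 were KLK5, KLK6, KLK7, KLK8, KLK10 and KLK13. The median slope of the 9 was 0.19 log2 per day, and that of all genes tested 0.

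KLK7 had the smallest adjusted p of the 9, with 7.13, 8.26, 8.74, 10.5, 16 and 19 CPM on days 0 to 5, or 0.29 ± 0.03 log2 per day (adjusted p 0.00012, edgeR). KLK5 went from 40.1 CPM on day 0 to 78.6 on day 5, with a slope of 0.17 ± 0.03 (adjusted p 0.0018). KLK8 was at 9.37 CPM on day 0 and 17.7 on day 5 (0.18 ± 0.03 per day, adjusted p 0.0023). For these genes days 4 and 5 were the highest of the course. KLK10 stayed at 11.8 to 15.1 CPM up to day 3 and was at 19.4 and 31.6 on days 4 and 5 (0.24 ± 0.05, adjusted p 0.0078, edgeR). KLK13 was at 0.629 CPM on day 0 and 1.81 on day 5 (0.33 ± 0.08, adjusted p 0.017), and KLK6 at 2.3 and 4.85 (0.19 ± 0.04, adjusted p 0.0084). Without the library of day 5, KLK10 (0.12, adjusted p 0.17), KLK13 (0.19, adjusted p 0.3) and KLK6 (0.18, adjusted p 0.079) were no longer called, while KLK5, KLK7 and KLK8 were. KLK6 was also not called without the library of day 0 (0.18, adjusted p 0.062).

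In SCC6 with PBS, 1 of 6 members tested changed with day, KLK5, where 32.7% of all genes did and 13.9% rose. Its slope was 0.34 ± 0.08 log2 per day (adjusted p 0.012, edgeR), but 0.21 without the library of day 0 (adjusted p 0.11). The libraries of days 0 and 1 were on another flow cell than those of days 2 to 5. KLK8 did not pass with all libraries (0.32 ± 0.11, adjusted p 0.055) but did without that of day 5 (0.47, adjusted p 0.035), as did KLK6 (0.12, adjusted p 0.037). KLK10 passed without the library of day 0, downwards (-0.2, adjusted p 0.035). In SCC1, 0 of 5 members tested passed by edgeR, none had an unadjusted p under 0.05, and DESeq2 called 0, where 2.49% of all genes were called.

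**Figure D4:**
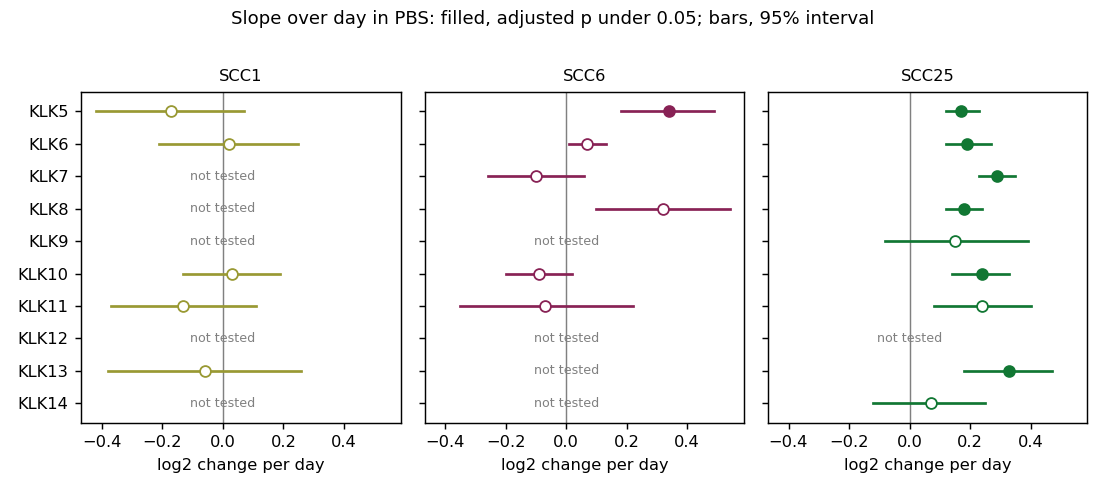
Slope of log2 level on day in PBS libraries of days 0 to 5, with bars for the 95% interval and filled points for an adjusted p under 0.05. In SCC25, 6 of 9 genes tested have filled points, between 0.17 and 0.33 log2 per day, against 1 in SCC6 and none in SCC1.

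Within a line, some members followed each other closely across libraries. Across the 11 libraries of SCC25, Pearson correlations of log2 CPM were 0.94 for KLK7 and KLK8, 0.91 for KLK8 and KLK10, 0.9 for KLK5 and KLK8 and 0.85 for KLK5 and KLK7, while KLK13 had -0.11 with KLK5. Across the 11 libraries of SCC6 the correlation was 0.93 for KLK5 and KLK8, 0.66 for KLK6 and KLK10 and -0.05 for KLK5 and KLK6. These are descriptions over libraries that share treatment, day and flow cell, and the difference between lines was not tested. The non-members whose pattern was most like the mean of 9 members over the 33 libraries, each line centred, were BICDL1 and ANKH (Pearson r 0.66 each), NTN1 (0.65), COG4 (0.64) and ADA (0.63), among 12435 genes.

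The counts of called inhibitors, activators, targets, differentiation genes and neighbours that follow stand against the share of all genes tested called with CTX. That share was 44.8%, 30.1% and 18.3% in SCC1, SCC6 and SCC25. Whether any list differs from other genes was not tested. Of 8 inhibitor genes, 4 were tested in SCC1, with 2 higher and 1 lower, and 3 each in SCC6 and SCC25, with 1 higher in each. SPINK5, which encodes the main KLK inhibitor of skin, was the member that rose in every line. Its mean level was 1.09 ± 0.243 CPM with PBS and 2.81 ± 0.57 with CTX in SCC1, 3.07 ± 0.698 against 6.65 ± 0.655 in SCC6, and 3.07 ± 0.263 against 4.17 ± 0.538 in SCC25 (SD, n = 5). Its log2 change was 1.38 ± 0.19 in SCC1, 1.06 ± 0.17 in SCC6 and 0.44 ± 0.11 in SCC25 (SE, adjusted p 8.8e-05, 0.00078 and 0.018, edgeR). In SCC1, SERPINA3, the gene of alpha-1-antichymotrypsin, also rose (1.94 ± 0.43, adjusted p 0.0027), and SERPINA1, the gene of alpha-1-antitrypsin, fell (-1.07 ± 0.2, adjusted p 0.00096). Within the flow cell that held both treatments, the calls of SPINK5 in SCC1 (1.65, adjusted p 0.011) and SCC6 (0.95, adjusted p 0.0033) and of SERPINA1 (-1.57, adjusted p 0.0036) held, and those of SPINK5 in SCC25 (0.24, adjusted p 0.29) and SERPINA3 (0.89, adjusted p 0.4) did not.

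Of 8 genes of the membrane protease cascade, which includes matriptase (ST14) and prostasin (PRSS8), 5 were tested in each line. PRSS8 rose in SCC1 (0.84 ± 0.13, adjusted p 0.00023, edgeR) and SCC25 (0.52 ± 0.13, adjusted p 0.015), and SPINT2, an inhibitor of matriptase, fell in SCC1 (-0.2 ± 0.07, adjusted p 0.036). PRSS8 was still called within the flow cell that held both treatments in SCC1 (0.82, adjusted p 0.047) and SCC25 (0.63, adjusted p 0.0095), and SPINT2 was not (-0.2, adjusted p 0.23). In SCC6 the PRSS8 change was 0.47 ± 0.26 and did not pass (adjusted p 0.19). Among untreated cells of SCC25, 3 of the 5 rose with day, where 7.08% of all genes did, ST14 (0.11 ± 0.02 log2 per day, adjusted p 0.0058), PRSS8 (0.11 ± 0.02, adjusted p 0.013) and TMPRSS4 (0.19 ± 0.04, adjusted p 0.0065).

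Of 5 genes for substrates and the receptor, F2RL1 fell in SCC1 and SCC6. Its mean level went from 64.9 ± 7.06 to 34.6 ± 3.26 CPM in SCC1 and from 153 ± 47.4 to 85.6 ± 16.7 in SCC6 (SD, n = 5), with a log2 change of -0.89 in both (SE 0.08 and 0.22, adjusted p 5.5e-06 and 0.01, edgeR). In SCC25 it was at 46.6 ± 2.77 and 44.4 ± 3.88 CPM. DSC1, a desmosomal cadherin that KLK5 cleaves, rose in SCC25 (1.87 ± 0.38, adjusted p 0.0059) from a mean of 0.0805 to 0.304 CPM. Its counts per library were 1 to 7 with PBS and 10 to 19 with CTX. It passed the filter through the CTX libraries alone, so its rise is partly set by the filter. F2RL1 was also called within the flow cell that held both treatments in SCC1 (-0.83, adjusted p 0.0026), but not in SCC6 (-0.59, adjusted p 0.079), nor was DSC1 in SCC25 (1.73, adjusted p 0.071). CDSN, another substrate, was at or under 2.21 CPM in every library and its change did not pass in SCC1, SCC6 or SCC25 (adjusted p 0.2, 0.31 and 0.58).

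Genes of late keratinocyte differentiation did not follow 1 direction with CTX. Of 18, 3 of 8 tested rose in SCC1, 1 rose and 3 fell of 9 in SCC6, and 2 of 10 fell in SCC25. FLG, the gene of filaggrin, rose in SCC1 (2.14 ± 0.37, adjusted p 0.00045, edgeR) and SCC6 (1.68 ± 0.27, adjusted p 0.00086) and fell in SCC25 (-0.47 ± 0.15, adjusted p 0.047). FLG counts per library were 2 to 9 with PBS and 16 to 42 with CTX in SCC1. In SCC6 they were 5 to 9 and 15 to 78. Both rises thus start from PBS counts under the filter's minimum of 10, and are partly set by the filter. SPRR1B, a precursor of the cornified envelope, fell in SCC6 (-5.15 ± 0.82, adjusted p 0.00082) and SCC25 (-1.25 ± 0.24, adjusted p 0.0049). Of these calls, 2 of 3 in SCC1, 4 of 4 in SCC6 and 1 of 2 in SCC25 held within the flow cell that held both treatments. Those lost were TGM1 in SCC1 (1.52, adjusted p 0.095) and FLG in SCC25 (-0.36, adjusted p 0.28). With day in untreated SCC25, 5 of 11 rose (7.08% of all genes did), among them TGM1 (0.6 ± 0.04 log2 per day, adjusted p 4.4e-06) and KRT1 (2 ± 0.2, adjusted p 7.5e-05), although KRT1 was at or under 1.2 CPM in PBS libraries.

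Of 12 factors of epithelial differentiation, 6 rose and 2 fell with CTX in SCC1, 2 rose and 6 fell in SCC6, and 1 of 11 tested rose in SCC25. GRHL2 was the factor that rose in all 3 (0.8 ± 0.08, 0.55 ± 0.12 and 0.21 ± 0.06, adjusted p 1e-05, 0.0041 and 0.027, edgeR), and TP63 rose in SCC1 (0.53 ± 0.11, adjusted p 0.0013) and SCC6 (1.21 ± 0.16, adjusted p 0.00025). PRDM1 fell in SCC1 (-2.3 ± 0.19, adjusted p 2.5e-06) and SCC6 (-3.1 ± 0.37, adjusted p 0.00013). GRHL1 and ZNF750 rose in SCC1 (0.44 ± 0.1 and 1.45 ± 0.34) and fell in SCC6 (-1.18 ± 0.19 and -2.14 ± 0.46), with adjusted p of 0.0023, 0.0037, 0.00099 and 0.0049. In SCC1, 3 of the 8 calls held within the flow cell that held both treatments, GRHL2, PRDM1 and CEBPA, with 8 of 8 in SCC6 and 1 of 1 in SCC25. TP63 (0.44, adjusted p 0.054), GRHL1 (0.4, adjusted p 0.14) and ZNF750 (0.86, adjusted p 0.33) were among those lost in SCC1. In untreated SCC25, 8 of the 12 rose with day against 7.08% of all genes, among them KLF4 (0.24 ± 0.02 log2 per day, adjusted p 7e-05).

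Genes around the cluster were compared as well. Of 12 neighbours on chromosome 19, 2 of 5 tested rose and 2 fell in SCC1, 2 of 7 rose and 1 fell in SCC6, and 1 of 6 fell in SCC25. C19orf48 fell in SCC1 (-0.39 ± 0.05, adjusted p 4e-05, edgeR) and SCC25 (-0.52 ± 0.11, adjusted p 0.0069), and VSIG10L rose in SCC1 (0.96 ± 0.22, adjusted p 0.0033) and SCC6 (0.77 ± 0.23, adjusted p 0.026). Among libraries of the flow cell that held both treatments, 1 of 4 calls in SCC1, 0 of 3 in SCC6 and 1 of 1 in SCC25 held, both of them C19orf48 (-0.34 and -0.32, adjusted p 0.033 and 0.028), and VSIG10L was at 0.81 and 0.38 (adjusted p 0.2 in each). Of the other 5 KLK genes of the same cluster, KLK1, KLK2, KLK3, KLK4 and KLK15, KLK4 rose in SCC1 (0.94 ± 0.24, adjusted p 0.0075), with means of 0.497 ± 0.106 and 0.947 ± 0.297 CPM (SD, n = 5), but not within the flow cell that held both treatments (0.83, adjusted p 0.26).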

How the data were processed

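Poly(A) RNA was sequenced from 33 libraries of SCC1, SCC6 and SCC25. The authors inferred transcript levels with Salmon (0.8.2 in the submitters' processing notes, which also name hg19 and GRCh37) and summed them with tximport. The deposited table holds these estimated counts by gene symbol, not normalised between libraries, and 63.2% of its values are whole numbers. The counter's strand setting is not given in the sources used here. The members and gene lists were chosen with earlier results of these data known.

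After rounding, edgeR 4.0.16 (limma 3.58.1, R 4.3.3) was used. Genes were filtered with filterByExpr (minimum count 10, minimum total 15), scaled by TMM and compared by the quasi-likelihood F test of edgeR, two-sided, adjusted by Benjamini-Hochberg over all genes. SE is the log2 change divided by the root of F, and 95% intervals are normal. CPM used TMM factors over all 33 libraries, and daily log2 ratios added 0.1 CPM. The fits were tested on simulated data. Positions came from GENCODE on GRCh37 and promoter windows from RefSeq on GRCh38.p14. Named genes are the 10 members, list genes called in at least 2 lines (any line for lists under 9 genes) and the 5 non-members most like the family (mean log2 CPM at least 1). From the ERK and cell marker lists, DUSP6 and LUM stand for the rest. These 2, CDSN, TGM1, KRT1, KLF4 and the genes named for a trend with day were chosen after their values were seen.

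Library totals of 28508758 to 80727478 set the precision, and genes with few counts have wide intervals. Libraries of a day share a time point by the labels, and after removal of each treatment's mean the libraries of a day correlated across genes by 0.11 to 0.22 in SCC25 and by 0.06 to 0.19 in SCC1. In SCC6, where the day of 2a and 2b is unknown, the values were 0.23, -0.07 and 0.08 on days 3 to 5. The alternatives were DESeq2 1.42.0, DESeq2 size factors, no filter, each library left out, day as a replicate block, flow cell as a covariate, the 1 flow cell with both treatments, day 0 added to PBS and trends without day 0. A robust dispersion was added after the data were seen.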

Additional observations from a re-analysis of the deposited data

Results flagged for a closer look

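KLK9 stood out for single libraries. In SCC25 with CTX its level on day 2 was 0.645 CPM, against 0.385 to 0.43 in the other 4 libraries, a gap of 0.83 of the whole range. In SCC6 with CTX its level on day 4 was 0.726 CPM, against 0.103 to 0.25 in the others, a gap of 0.76 of the range. Both gaps exceed the critical value of 0.71 for 5 samples. Chance gives such a gap in about 5% of groups, and 38 groups of members with at least 50 counts were checked. The KLK9 counts behind these levels were 31 and 52.

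The response to CTX differed past the threshold between lines for 2 members, and both calls were lost under some settings. For KLK6 the change in SCC1 minus that in SCC25 was -1.61 in log2 (adjusted p 0.024, edgeR), with CTX below the PBS library of its day on 5 of 5 days in SCC1 and on 3 of 5 in SCC25. It was the 1 call among 9 members, where 8.52% of all genes were called, and was lost without any 1 of 4 libraries or once a flow cell term was fitted (-1.86, adjusted p 0.11). For KLK8 the change in SCC6 minus that in SCC25 was 1.31 (adjusted p 0.045, edgeR), with CTX above PBS in 5 of 5 libraries of SCC6 (2a and 2b against the mean of PBS days 1 and 2) and on 4 of 5 days in SCC25. It was likewise the 1 call among 9, where 17.5% of all genes were called, and was lost without any 1 of 17 of the 30 libraries or once a flow cell term was fitted (0.48, adjusted p 0.57).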

How the results depend on the processing

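Over all alternatives no called member changed sign: 650 values stayed on the same side of the threshold and 52 fell short of it. The calls between untreated lines held under every alternative, so the 52 all belong to the other comparisons. KLK5 with CTX in SCC25 fell short in 9 of 18, and KLK8 for SCC6 minus SCC25 in 18 of 37. KLK6 with CTX in SCC6 held in 19 of 19. Another 63 member comparisons were never called, and 82 of their 1429 values had the opposite sign. Of the counts of members called, 84 of 94 were within 1.5 times the reported one, and of the counts of all genes called 76 of 94.

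The flow cell as a covariate left 0 members (reported: 1) and 4197 genes called with CTX in SCC1 (reported: 8061), and 0 members (2) and 1417 genes (3496) in SCC25. Within 1 flow cell the counts were 0 members and 3523 genes in SCC1, and 0 members and 1899 genes in SCC25. In SCC6 the calls of KLK5 and KLK8 with CTX were lost within 1 flow cell, while KLK6 stayed called and KLK10 was called as well. Over the 19 alternatives in that line, KLK5 and KLK8 each missed the threshold in 4, with lowest values of 0.45 and 0.54. The fits within 1 flow cell had fewer libraries and unmatched days of PBS and CTX. For differences between lines the covariate gave 2359 genes for SCC1 minus SCC6 (4128), 0 members (1) and 949 genes for SCC1 minus SCC25 (1824), and 1748 genes for SCC6 minus SCC25 (3750). For the later against the earlier days in SCC25 it gave 209 genes (0). In SCC6 that model could not be fitted with a flow cell term and was not run. Why the counts changed with the flow cell settings was not tested.

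DESeq2 called 1 member for SCC1 minus SCC6 (0), 1485 genes with a trend in SCC1 (474), and, for the later against the earlier days (reported: 0 in each), 31 genes in SCC1, 2 members and 2838 genes in SCC6, and 3 genes in SCC25. Without a filter 2 members were called with CTX in SCC1 (1), and later against earlier days 202 genes in SCC1, 2 members and 3366 genes in SCC6, and 7 genes in SCC25. A robust dispersion, chosen after seeing the data, left 1 member in SCC25 (2), as KLK5 had an adjusted p of 0.057 (edgeR). It also took KLK10 out of the SCC25 trend (0.24, adjusted p 0.093). Trends over days 1 to 5 called 99 genes in SCC1 (474), 1892 in SCC6 (5812) and 1090 in SCC25 (2147).

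Leaving out each library gave 1 to 4 members with CTX in SCC6 (3), 1 to 2 members and 2193 to 4006 genes in SCC25, 0 to 1 member for SCC1 minus SCC6 and for SCC1 minus SCC25, and 0 to 2 for SCC6 minus SCC25 (1). For trends it gave 24 to 1575 genes in SCC1, 1 to 3 members and 1892 to 7137 genes in SCC6, and 3 to 6 members and 1090 to 2279 genes in SCC25. For later against earlier days it gave 0 to 2 members and 0 to 1424 genes in SCC6 and 0 to 2 genes in SCC25.

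With the replicate block by day, KLK8 in SCC25 (0.28, adjusted p 0.045, edgeR) and KLK10 between the PBS libraries of SCC6 and SCC25 (0.57) were also called, and no other member's call changed. KLK9, KLK11, KLK13 and KLK14 rested on few counts, which limits what could be detected.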
